A study of Mus musculus with 209 samples.

Results

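The response of red pulp macrophages to IL6, a cytokine of acute inflammation, was measured 2 h after injection into mice. The comparison holds 8 of the 209 RNA-seq libraries of the series. The libraries were chosen by the cell type, treatment and tissue code in their titles, and all 55011 genes of the count table were open to it. In the wider study, 3 cytokines were injected separately and many immune cell types were sorted, to find which genes each cytokine changes in each type. The IL6 group (3 libraries) came from C57BL/6 mice aged 5 to 8 weeks that received 5 µg of IL6 in 120 µL of PBS by vein. The PBS group (5 libraries) came from mice of the same strain and age that received 120 µL of PBS alone. No allele, transgene or other treatment is named for either group. Each library was made from 1000 cells sorted in 2 rounds. Whether each library of a group comes from its own mouse is not stated, and p-values here therefore measure spread among libraries, which may be technical. The titles place the cells in the spleen, while the tissue label names the peritoneal cavity, and the titles were followed.

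Red pulp macrophages are the resident macrophages of the splenic red pulp. They engulf worn-out red blood cells, break haem down with haem oxygenase (Hmox1) and return the iron to the blood through ferroportin (Slc40a1), and the transcription factor SpiC (Spic) is needed for their development. IL6 binds its receptor chain (Il6ra), and the pair engages gp130 (Il6st), which carries Janus kinases. These phosphorylate STAT3, which enters the nucleus and switches on its target genes, among them Socs3, an inhibitor that shuts the pathway off again. Macrophages respond to IL6 directly, and in several settings the cytokine makes them more sensitive to IL4 by raising the IL4 receptor.

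The 8 libraries held 3329105 to 5560540 counts. A count was recorded for 20830, 19906 and 25531 genes in the IL6 libraries, of which library 3 stood apart, against 17302 to 20892 genes in the PBS libraries. Mitochondrial genes took 0.653% to 0.819% of the counts with IL6 and 0.803% to 1.21% with PBS. The 12 markers of red pulp macrophages summed to 37099 to 48986 CPM in the IL6 libraries, against 24473 to 45615 CPM in the PBS libraries, and none of them was at 0 in all libraries, so the defining genes of the labelled cell type were present in both groups. Red-cell genes divided the PBS libraries. The haemoglobin genes summed to 1297, 2325 and 2519 CPM in the IL6 libraries, against 20686, 42784, 23599, 2199.9 and 1012 CPM in the PBS libraries. PBS libraries 1 to 3 stood above all others, and PBS libraries 4 and 5 lay beside the IL6 libraries. The haemoglobin level was 10.94 ± 0.52 on the log2 scale with IL6 (SD, n = 3) and 13.07 ± 2.37 with PBS (SD, n = 5), and an exact two-sided permutation test gave p = 0.321, where the smallest p this design allows is 0.0179. The high level in PBS libraries 1 to 3 was known beforehand. The test compares group means and does not address that split within the PBS group. The 15 other erythroid markers in the table summed to 1444, 449 and 1359 CPM in the IL6 libraries, against 7859, 13082, 4138, 976 and 380.5 CPM in the PBS libraries, with PBS libraries 1 to 3 again the highest. Igkc, Ighm and Jchain, immunoglobulin genes of B and plasma cells, summed to 87.2, 56.4 and 56.0 CPM in the IL6 libraries, against 512, 9841, 5283, 145 and 1356 CPM in the PBS libraries. Natural killer cell markers summed to 554 to 1029.8 CPM in the IL6 libraries, against 93 to 1975 CPM in the PBS libraries, monocyte markers to 174 to 455 CPM in the IL6 libraries, against 123 to 548 CPM in the PBS libraries and dendritic cell markers to 139 to 319 CPM in the IL6 libraries, against 184 to 1159 CPM in the PBS libraries. T cell markers summed to 55.8 to 163 CPM in the IL6 libraries, against 46.5 to 434 CPM in the PBS libraries, B cell markers to 74.6 to 89.3 CPM in the IL6 libraries, against 69.5 to 229 CPM in the PBS libraries and neutrophil markers to 93.6 to 111 CPM in the IL6 libraries, against 68.5 to 174 CPM in the PBS libraries, and the neutrophil genes Ngp and Stfa2l1 were at 0 in all 8. In such bulk samples, fewer cells of a type and less RNA per cell cannot be told apart.

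**Figure D1:**
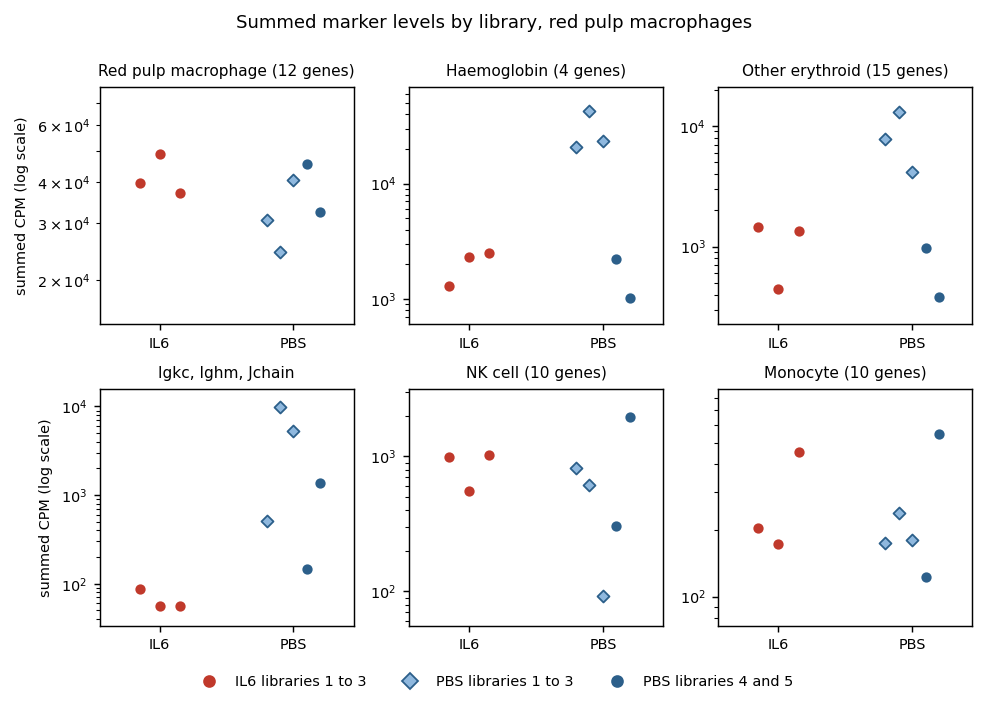
Summed CPM of marker genes in each library on a log axis, with the 3 IL6 libraries to the left of the 5 PBS libraries in each panel. Haemoglobin genes lie at 20686 CPM or more in PBS libraries 1 to 3 and at 2519 CPM or less in the other 5 libraries, while red pulp macrophage markers span 24473 to 48986 CPM over all 8.

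IL6 raised 51 genes in red pulp macrophages and lowered 0. A gene was called when its p, adjusted by the Benjamini-Hochberg method over all 13185 genes tested, was under 0.05 in edgeR's quasi-likelihood test, the source of every adjusted p given here. The raised genes are 0.387% of those tested. Their log2 fold changes ran from 0.71 to 6.75 with a median of 1.61, while the median of all genes tested was -0.02. Of the 51 genes, 45 rose at least 2-fold and 11 at least 4-fold. Every IL6 library lay above every PBS library for all 51, which held for 4.79% of the genes tested. At an unadjusted p under 0.05, 684 genes were higher (5.19%) and 611 lower (4.63%), and DESeq2 called 148 raised and 70 lowered genes. Of the raised genes, 50 averaged at least 10 CPM with IL6, up to 1130 CPM, and Igsf10 averaged 8.16 CPM. The count moved when single libraries were left out, which also leaves fewer libraries in the fit. It was 32, 18 and 22 without IL6 library 1, 2 and 3, and 36 to 61 without 1 PBS library. It was 22 without PBS libraries 1 to 3 together, 17 of them among the 51, and the log2 fold changes of the 51 then ran from 0.61 upwards with a median of 1.50.

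Sorted by function after their values were seen, the raised genes held 5 chains of cytokine receptors, 7 intracellular signalling proteins, 7 other immune receptors of the cell surface, 8 other secreted or surface proteins, 2 serine protease inhibitors, 3 transcription factors, 5 proteins of membrane traffic and organelles, 5 of transport and lipid binding, and 9 others. Pros1, Ptpn1, Gja1, Trib1, Il15ra, Sdc4, Enpp2, Tnip2, Tnfrsf1a, Il4ra and Serpina3g, 11 genes, were called under each of 18 alternative fits. With Rcan1, Cd244a, Ms4a6d, Lilrb4a, Nxpe5 and Igsf10, 17 genes were called in each of the 8 fits that leave out 1 library. The other 34 kept a log2 fold change above 0 and lost the call in at least 1 of these fits.

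**Figure D2:**
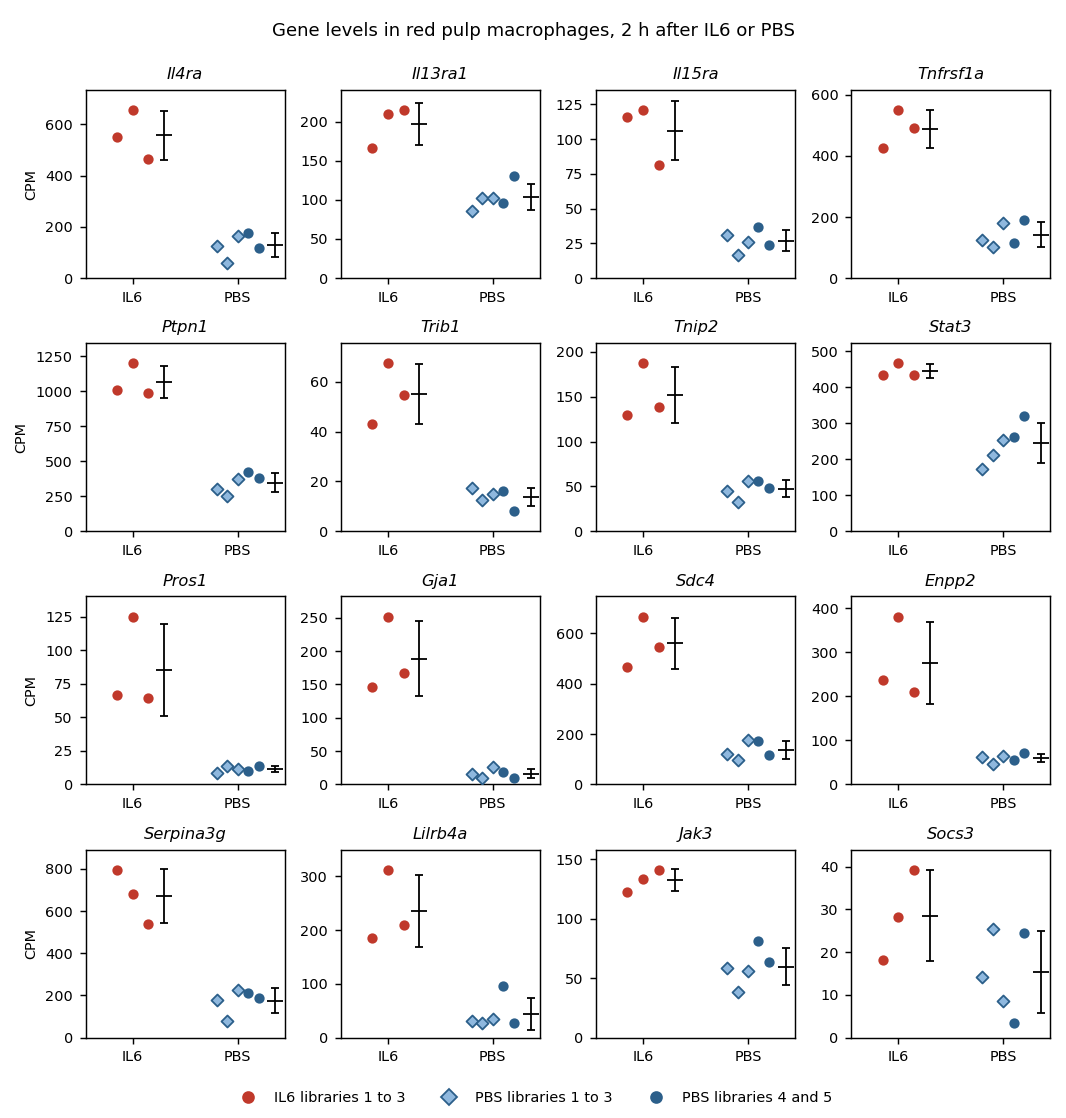
CPM of 16 genes in each of the 3 IL6 libraries and, to their right, the 5 PBS libraries (diamonds for PBS libraries 1 to 3), with bars for the mean and SD of each group. Every IL6 library lies above every PBS library in each panel but that of Socs3, as for Pros1, at 64.8 to 125 CPM with IL6 and 8.88 to 13.9 CPM with PBS; Jak3 and Socs3 did not pass the adjusted threshold.

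Pros1 had the smallest p of all genes. It encodes protein S, a plasma anticoagulant that also bridges dying cells to the engulfment receptors Tyro3 and Mertk. Pros1 (chr16:62854307-62929346, plus strand of GRCm38) had 66.9, 125 and 64.8 CPM in the IL6 libraries, against 8.88, 13.5, 11.4, 10.3 and 13.9 CPM in the PBS libraries. The groups were far apart, with a log2 fold change of 2.88 ± 0.27 (SE, adjusted p = 0.000164), which is 7.37-fold. Gja1 (chr10:56377330-56402513, plus strand), a connexin of gap junctions, had 146, 252 and 168 CPM in the IL6 libraries, against 16.4, 9.68, 26, 18.8 and 9.65 CPM in the PBS libraries. Its log2 fold change of 3.54 ± 0.40 (SE, adjusted p = 0.00052) was the largest after Igsf10. Igsf10, a member of the immunoglobulin superfamily, had 4.41, 12.4 and 7.7 CPM in the IL6 libraries, against a single count in PBS library 2 and none in the other PBS libraries. With 119 counts in the IL6 libraries and 1 in the PBS libraries, the ratio of rates was 176, with an exact 95% interval of 31.0 to 7006 that covers counting error only. Its fitted log2 fold change, 6.75, depends on the prior count of the fit.

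Other secreted and surface proteins rose as well. Sdc4, the heparan sulfate proteoglycan syndecan-4, had 466, 667 and 546 CPM in the IL6 libraries, against 123, 98, 178, 173 and 118 CPM in the PBS libraries, a log2 fold change of 2.02 ± 0.25 (SE, adjusted p = 0.000785). Enpp2 encodes autotaxin, the secreted enzyme that makes lysophosphatidic acid. It had 236, 381 and 209 CPM in the IL6 libraries, against 61.8, 45.8, 65.5, 56.1 and 70.5 CPM in the PBS libraries, and the groups did not overlap, with a log2 fold change of 2.20 ± 0.27 (SE, adjusted p = 0.000785). Tnf, the inflammatory cytokine, had 7.3, 17 and 8.76 CPM in the IL6 libraries, against 5.21, 2.55, 3.14, 2.72 and 1.61 CPM in the PBS libraries. This was a log2 fold change of 1.81 ± 0.33 (SE, adjusted p = 0.0218). Adam9 (a membrane metalloprotease), Cemip2 (a surface protein that degrades hyaluronan) and Notch1 (a receptor for contact signals) had log2 fold changes of 1.16, 1.54 and 1.36.

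Chains of cytokine receptors rose in 5 cases. The IL4 receptor chain Il4ra (chr7:125552120-125579474, plus strand), which serves both IL4 and IL13, had 550.3, 655 and 466 CPM in the IL6 libraries, against 125, 57, 165, 176 and 118 CPM in the PBS libraries. Its lowest IL6 library was above the highest PBS library by a wide margin, and the log2 fold change was 2.12 ± 0.28 (SE, adjusted p = 0.00127), or 4.34-fold. Its partner for IL13, Il13ra1, had 166, 209.7 and 215 CPM in the IL6 libraries, against 85.9, 103, 102, 95.5 and 131 CPM in the PBS libraries, a log2 fold change of 0.93 ± 0.19 (SE, adjusted p = 0.0454). Il15ra, which presents IL15 to lymphocytes, had 116, 121 and 81.5 CPM in the IL6 libraries, against 31.1, 16.8, 26, 36.7 and 23.6 CPM in the PBS libraries, with no overlap between groups and a log2 fold change of 1.98 ± 0.24 (SE, adjusted p = 0.000785). Tnfrsf1a, the main signalling receptor of TNF, had 426, 550.1 and 493 CPM in the IL6 libraries, against 125, 102, 179, 115 and 191 CPM in the PBS libraries. Its log2 fold change was 1.78 ± 0.23 (SE, adjusted p = 0.00127). Csf2rb, the signalling chain shared by the receptors of GM-CSF, IL3 and IL5, rose by a log2 fold change of 1.39 ± 0.26 (SE, adjusted p = 0.0232), with 335 ± 57.7 CPM in the IL6 libraries (SD, n = 3) and 128 ± 39.8 CPM in the PBS libraries (SD, n = 5).

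Intracellular signalling proteins rose in 7 cases, several of which act as brakes. Ptpn1 (chr2:167932057-167979385, plus strand), a phosphatase that removes phosphate from Janus kinases, had 1008, 1201 and 989 CPM in the IL6 libraries, against 305, 254, 375, 422 and 384 CPM in the PBS libraries. It rose in every IL6 library, by a log2 fold change of 1.61 ± 0.17 (SE, adjusted p = 0.000301). Trib1, a pseudokinase that promotes the degradation of C/EBP factors, had 43.1, 67.4 and 54.7 CPM in the IL6 libraries, against 17.2, 12.5, 15.1, 16.3 and 8.31 CPM in the PBS libraries, a log2 fold change of 1.98 ± 0.22 (SE, adjusted p = 0.00052). Tnip2, which binds the ubiquitin-editing enzyme A20 and restrains NF-kB, had 129.5, 187 and 138 CPM in the IL6 libraries, against 44.6, 33.1, 56.3, 55.8 and 48.2 CPM in the PBS libraries, with a log2 fold change of 1.67 ± 0.21 (SE, adjusted p = 0.000785). For both, no PBS library reached the lowest IL6 library. Rcan1, an inhibitor of the phosphatase calcineurin, had 90.3, 149 and 93.2 CPM in the IL6 libraries, against 15.8, 32.9, 45.7, 20.7 and 20.4 CPM in the PBS libraries, a log2 fold change of 2.03 ± 0.29 (SE, adjusted p = 0.00273). The PI 3-kinase subunit Pik3r5, the Src-family kinase Fgr and the protein kinase C substrate Plek rose by log2 fold changes of 1.09, 1.10 and 0.98.

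Among the 7 other immune receptors were the paired receptors Lilrb4a, Lilr4b and Pirb, of which Lilrb4a and Pirb are inhibitory, and whose near-identical copies make their counts uncertain. Lilrb4a had 186, 313 and 209.8 CPM in the IL6 libraries, against 31.7, 26.7, 34.9, 95.8 and 27.9 CPM in the PBS libraries, a log2 fold change of 2.45 ± 0.36 (SE, adjusted p = 0.00365). PBS library 4 stood above the other PBS libraries and still below every IL6 library. Cd244a, a receptor for the surface protein CD48, had 599, 634 and 558 CPM in the IL6 libraries, against 172, 132, 118, 176 and 227 CPM in the PBS libraries. The log2 fold change was 1.85 ± 0.26 (SE, adjusted p = 0.00273). C5ar1, the receptor for the complement fragment C5a, had 37.5, 46 and 60.3 CPM in the IL6 libraries, against 24.5, 12.7, 18.1, 10.1 and 6.43 CPM in the PBS libraries, and rose by a log2 fold change of 1.72 ± 0.31 (SE, adjusted p = 0.0201). Ms4a6d, a membrane-spanning protein of macrophages, rose by 2.27 and Trem3, an activating myeloid receptor, by 1.21 on the log2 scale. The serine protease inhibitors Serpina3g and Serpina3f belong to a cluster of similar copies. Serpina3g had 796, 679 and 539 CPM in the IL6 libraries, against 177, 78.2, 225, 211 and 188 CPM in the PBS libraries, a log2 fold change of 1.93 ± 0.27 (SE, adjusted p = 0.0024), and Serpina3f rose by 1.43 on that scale.

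The remaining raised genes included 3 transcription factors. Xbp1, which drives the unfolded protein response, had 647, 866 and 622 CPM in the IL6 libraries, against 227, 334, 461, 385 and 357 CPM in the PBS libraries, a log2 fold change of 1.01 ± 0.19 (SE, adjusted p = 0.0267), and Hivep3, a zinc finger factor, rose by 1.18. Of the membrane traffic genes, Flot1, a flotillin of membrane microdomains, had 141, 152 and 140.2 CPM in the IL6 libraries, against 51.5, 72.1, 56.8, 74.8 and 35.1 CPM in the PBS libraries. Its log2 fold change was 1.31 ± 0.22 (SE, adjusted p = 0.0108), and the clathrin adaptors Picalm and Hip1 rose by 0.93 and 1.26. Sfxn5, a sideroflexin of mitochondria, had 60.4, 89.6 and 71.4 CPM in the IL6 libraries, against 18.5, 17.3, 25.6, 30.2 and 22 CPM in the PBS libraries, a log2 fold change of 1.70 ± 0.26 (SE, adjusted p = 0.00602). Nxpe5 (chr5:138225898-138253363, plus strand) had 175, 237 and 187 CPM in the IL6 libraries, against 28.4, 34.6, 45.6, 51.4 and 19.6 CPM in the PBS libraries. Its groups were well apart, with a log2 fold change of 2.48 ± 0.37 (SE, adjusted p = 0.00493). Fabp5 (a fatty acid carrier), Slc31a2 (a copper transporter) and Nipa2 (a magnesium transporter) rose by 1.64, 1.09 and 0.85. Mefv, the pyrin inflammasome sensor, and Apobec3, a cytidine deaminase that restricts retroviruses, rose by 2.57 and 0.71. Of the 51 genes, 6 share exons on the same strand with another gene of the GENCODE vM21 annotation and 12 on the other strand, and their counts are uncertain to that extent.

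The components of the IL6 pathway were described by lists. Counts in this and later lists stand beside shares of all genes tested. These are 0.387% called, and 5.19% higher and 4.63% lower at an unadjusted p under 0.05 in edgeR's test. None of the 8 tested genes of the IL6 receptor list was called (median log2 fold change -0.01), with 0 higher and 1 lower at an unadjusted p under 0.05 in edgeR's test and 0 raised and 0 lowered by DESeq2. Il6ra had 67.4, 138 and 105 CPM in the IL6 libraries, against 121, 50.9, 82.1, 77.8 and 104 CPM in the PBS libraries, and the groups overlapped, as they did for Il6st, which had 96.4, 139 and 147 CPM in the IL6 libraries, against 66.6, 45.3, 127, 147 and 111 CPM in the PBS libraries. Their log2 fold changes were 0.25 ± 0.28 (SE, adjusted p = 0.848) and 0.36 ± 0.30 (SE, adjusted p = 0.743). Of 9 Janus kinases and their phosphatases, Ptpn1 alone was called (list median 0.44), though every IL6 library lay above every PBS library for 5 of the 9, beside 4.79% of the genes tested. Jak3, the Janus kinase of the common gamma chain, had 123, 133 and 141 CPM in the IL6 libraries, against 58.7, 38.2, 55.7, 81.6 and 63.2 CPM in the PBS libraries, a log2 fold change of 1.15 ± 0.26 (SE, adjusted p = 0.0792) that missed the threshold, as did that of the phosphatase Ptpn6, 0.49 ± 0.15 (SE, adjusted p = 0.254). Of 7 STAT factors, Stat3 alone was called (list median 0.23). Stat3 (chr11:100885098-100939540, minus strand) had 434, 466 and 434 CPM in the IL6 libraries, against 173, 210.4, 254, 263 and 319.7 CPM in the PBS libraries. No PBS library reached the IL6 libraries, and the log2 fold change was 0.87 ± 0.18 (SE, adjusted p = 0.0454), close to the threshold. Its exons overlap those of Stat5a on the other strand. Stat6 had a log2 fold change of 0.23 ± 0.16 (SE, adjusted p = 0.672).

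None of the 12 STAT inhibitors was called, with a list median of 0.06, 0 higher and 0 lower at an unadjusted p under 0.05 in edgeR's test and 0 raised and 0 lowered by DESeq2. Socs3, the inhibitor induced by STAT3 in many cell types, had 18.2, 28.2 and 39.3 CPM in the IL6 libraries, against 14.3, 25.5, 8.67, 3.54 and 24.4 CPM in the PBS libraries. The groups overlapped, and the log2 fold change was 0.90 ± 0.44 (SE, adjusted p = 0.529). In a list of 28 tested genes known as STAT3 targets, Il4ra and Stat3 were the 2 called, with a median of 0.59, and every IL6 library lay above every PBS library for 8, beside 4.79% of the genes tested. At an unadjusted p under 0.05 in edgeR's test, 12 higher and 1 lower were found in this list, and DESeq2 called 6 raised and 0 lowered. Bcl3, an atypical inhibitor protein of the NF-kB family, had 15.6, 23.2 and 21.2 CPM in the IL6 libraries, against 8.3, 2.29, 4.06, 7.62 and 8.84 CPM in the PBS libraries, and Arid5a, which stabilises messenger RNAs of inflammation, had 79.8, 72.2 and 94 CPM in the IL6 libraries, against 13.9, 31.6, 23.6, 18.5 and 56 CPM in the PBS libraries. Both were higher in every IL6 library, and neither was called, at 1.68 ± 0.35 (SE, adjusted p = 0.0536) and 1.52 ± 0.33 (SE, adjusted p = 0.0588). The kinase Pim1 and the AP-1 factor Junb had log2 fold changes of 0.50 ± 0.33 (SE, adjusted p = 0.653) and 0.43 ± 0.19 (SE, adjusted p = 0.479). Of 9 tested genes taken from the study's own IL6 responses in several cell types, a choice made on these samples and no independent evidence of direction, Flot1 and Stat3 were called (median 0.66). Flot2, the partner of Flot1, had a log2 fold change of 0.66 ± 0.21 (SE, adjusted p = 0.28), and Fkbp5, a chaperone that glucocorticoids also raise, one of 0.79 ± 0.18 (SE, adjusted p = 0.0743).

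The promoters of raised genes are shown because STAT dimers recognise a short palindrome that can be looked for there. The motif TTCNNNGAA was searched for in 300 bases of each RefSeq promoter (GRCm38.p6), from 250 before the start site to 50 after it. The motif reads the same on both strands, so that 1 search covers both, and it was searched together with no other motif. It occurred in 2726 of all 32851 promoters (8.30%) and in 862 of the 12414 promoters of genes tested (6.94%). Of the 51 raised genes, 40 had a promoter in the table, 51 promoters in all, of which 8 held the motif (15.7%). These belonged to 7 genes, as overlapping promoters of Serpina3f hold the same site: Pros1, Tnip2, Tnfrsf1a, Serpina3g, Serpina3f, Lilr4b and Igsf10. The sequences of the first 4 are given below 5′ to 3′ on the gene's strand, with the motif in capitals, as they are among the genes called under every alternative.
Pros1, chr16:62854057-62854356, plus strand: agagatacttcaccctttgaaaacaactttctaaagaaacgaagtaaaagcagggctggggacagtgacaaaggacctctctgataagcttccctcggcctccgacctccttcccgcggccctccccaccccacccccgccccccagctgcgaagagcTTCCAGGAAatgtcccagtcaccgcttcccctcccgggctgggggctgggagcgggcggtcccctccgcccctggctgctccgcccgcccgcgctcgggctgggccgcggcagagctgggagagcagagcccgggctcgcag
Tnip2, chr5:34513930-34514229, minus strand: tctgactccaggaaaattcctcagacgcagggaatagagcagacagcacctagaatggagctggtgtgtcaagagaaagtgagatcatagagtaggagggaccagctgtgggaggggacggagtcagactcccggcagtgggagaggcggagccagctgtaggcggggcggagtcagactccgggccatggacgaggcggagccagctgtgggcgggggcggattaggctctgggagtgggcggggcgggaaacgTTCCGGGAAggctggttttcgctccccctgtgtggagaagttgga
Tnfrsf1a, chr6:125349473-125349772, plus strand: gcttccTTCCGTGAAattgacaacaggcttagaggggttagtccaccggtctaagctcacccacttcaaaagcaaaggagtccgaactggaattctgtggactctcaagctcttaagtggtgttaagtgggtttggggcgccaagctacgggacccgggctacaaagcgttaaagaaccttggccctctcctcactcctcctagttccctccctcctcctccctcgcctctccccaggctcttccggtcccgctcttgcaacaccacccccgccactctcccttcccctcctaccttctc
Serpina3g, chr12:104235897-104236196, plus strand: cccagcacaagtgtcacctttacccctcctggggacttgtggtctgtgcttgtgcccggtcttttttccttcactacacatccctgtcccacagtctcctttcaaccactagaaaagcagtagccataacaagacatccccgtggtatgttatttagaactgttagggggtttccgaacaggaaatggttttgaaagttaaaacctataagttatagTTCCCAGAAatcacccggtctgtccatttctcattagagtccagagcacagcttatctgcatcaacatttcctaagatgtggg
The motif begins 92 bases before the start site in Pros1, 244 before it in Tnfrsf1a and 33 before it in Serpina3g, and at base 6 of the transcript in Tnip2. A match describes these letters and not a bound site, and binding was not measured.

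The genes that define red pulp macrophages were not called. In the list of 25 identity genes, 0 passed the test in either direction (median 0.14), as did 0 of 24 genes of haem and iron handling (median 0.02) and 0 of 24 genes of engulfment and lysosomes (median 0.08), beside 0.387% of all genes. At an unadjusted p under 0.05 in edgeR's test, 6 higher and 1 lower were found in the list of identity genes, 3 higher and 1 lower in that of iron handling and 2 higher and 1 lower in that of engulfment. DESeq2 called 1 raised and 1 lowered in the list of identity genes, 0 raised and 0 lowered in that of iron handling and 0 raised and 1 lowered in that of engulfment. Hmox1, the haem-degrading enzyme, had 5204, 6159 and 5784 CPM in the IL6 libraries, against 2989, 2207, 4204, 4399.8 and 3212 CPM in the PBS libraries. Every IL6 library was above every PBS library, but its log2 fold change, 0.75 ± 0.22 (SE, adjusted p = 0.235), missed the threshold. The iron exporter Slc40a1 had 9538, 13438 and 8268 CPM in the IL6 libraries, against 7027, 6463, 8638, 13258 and 8239.8 CPM in the PBS libraries, and Spic had 2469.6, 3387 and 2234 CPM in the IL6 libraries, against 1658, 1065, 1798, 2301 and 1733 CPM in the PBS libraries. Both overlapped between the groups, with log2 fold changes of 0.26 ± 0.29 (SE, adjusted p = 0.841) and 0.66 ± 0.25 (SE, adjusted p = 0.386). Mertk, a receptor for protein S, had 917, 1151 and 1292 CPM in the IL6 libraries, against 766, 308, 757, 845 and 747 CPM in the PBS libraries. Its groups did not overlap, PBS library 2 was the lowest by far, and the log2 fold change of 0.71 ± 0.30 (SE, adjusted p = 0.455) missed the threshold. Cd36, a scavenger receptor for oxidised lipids and dying cells, had 56.9, 40.7 and 49.7 CPM in the IL6 libraries, against 202, 328, 162, 68 and 97 CPM in the PBS libraries. Every IL6 library lay below every PBS library, which held for 2.83% of the genes tested. The highest values were those of PBS libraries 1 to 3, rich in haemoglobin, and PBS libraries 4 and 5 lay closer to the IL6 libraries. Its log2 fold change was -1.80 ± 0.41 (SE, adjusted p = 0.0792), which was not called, and -0.75 without PBS libraries 1 to 3. The part of the red-cell RNA in it was not tested. Clec4n (dectin-2, a receptor for fungal sugars) and the erythropoietin receptor Epor had log2 fold changes of 0.99 ± 0.24 (SE, adjusted p = 0.119) and -1.14 ± 0.33 (SE, adjusted p = 0.235).

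Of 18 Fc receptors, complement receptors and complement components, C5ar1 was the 1 called (median 0.28). At an unadjusted p under 0.05 in edgeR's test, 5 higher and 0 lower were found in this list, and DESeq2 called 3 raised and 0 lowered. The Fc receptors for IgG named here did not pass the test. Fcgr3 had 1176, 1479 and 1098 CPM in the IL6 libraries, against 523, 493, 758, 770.0 and 661 CPM in the PBS libraries, and Fcgr4 had 557, 447 and 509 CPM in the IL6 libraries, against 242, 199, 366, 229 and 242 CPM in the PBS libraries. Their log2 fold changes were 0.96 ± 0.20 (SE, adjusted p = 0.0535) and 0.98 ± 0.21 (SE, adjusted p = 0.0588), and that of Fcgr1 was 0.79 ± 0.27 (SE, adjusted p = 0.328). Of 15 chemokines, 0 were called (median 0.74), with 6 higher and 0 lower at an unadjusted p under 0.05 in edgeR's test and 1 raised and 0 lowered by DESeq2. Ccl12, which attracts monocytes, had 0.849, 1.35 and 0.797 CPM in the IL6 libraries and no count in any of the PBS libraries, a difference at the lower edge of detection (adjusted p = 0.0792). Tnf was the 1 called of 15 cytokines and growth factors, whose median was 1.21. This list held 7 higher and 0 lower at an unadjusted p under 0.05 in edgeR's test, and 3 raised and 0 lowered by DESeq2. Among the others, Il27 had a log2 fold change of 1.42 ± 0.35 (SE, adjusted p = 0.116), Il1rn, the natural antagonist of IL1, one of 1.88 ± 0.57 (SE, adjusted p = 0.243), and Tgfb1 one of 1.21 ± 0.33 (SE, adjusted p = 0.172).

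Interferon, stress and growth programmes showed few calls, beside 0.387% of all genes tested, a share at which most lists of this size hold 0. Among type I interferon-stimulated genes, 0 of 30 were called (median -0.14), and among interferon-gamma-stimulated genes, 0 of 25 (median 0.28). At an unadjusted p under 0.05 in edgeR's test, 3 higher and 7 lower were found in the type I list and 3 higher and 1 lower in the interferon-gamma list. Of all genes tested, 5.19% were higher and 4.63% lower at that threshold. DESeq2 called 1 raised and 4 lowered in the type I list and 1 raised and 0 lowered in the interferon-gamma list. Rsad2, the antiviral protein viperin, had 45.1, 60.2 and 65.1 CPM in the IL6 libraries, against 767, 1094, 846, 75.4 and 76.4 CPM in the PBS libraries. The high values were those of PBS libraries 1 to 3, the libraries rich in haemoglobin, and PBS libraries 4 and 5 lay just above the IL6 libraries, and the log2 fold change of -3.33 ± 0.89 (SE, adjusted p = 0.167) missed the threshold. The part of the red-cell RNA in it was not tested. Oasl1 and Cmpk2, further interferon-stimulated genes, had log2 fold changes of -3.27 and -1.36 and were not called. Of 20 immediate-early genes 0 were called (median 0.40), of 18 glucocorticoid-responsive genes 0 (median 0.24), and of 14 heat-shock and stress genes 1, Xbp1 (median -0.03). MHC class II presentation (13 genes), glycolysis and hypoxia (20) and cholesterol synthesis and efflux (17) held 0 called genes each, with medians of 0.07, -0.08 and 0.30. The 20 cell-cycle genes held 0 and had a median of -1.26. At an unadjusted p under 0.05 in edgeR's test, there were 7 higher and 1 lower in the immediate-early list, 4 higher and 0 lower in the glucocorticoid list, 1 higher and 0 lower in the MHC class II list, 1 higher and 1 lower in the glycolysis list, 2 higher and 1 lower in the cholesterol list and 0 higher and 2 lower in the cell-cycle list. In the same order, DESeq2 called 1 raised and 0 lowered, 2 raised and 0 lowered, 0 raised and 0 lowered, 0 raised and 0 lowered, 1 raised and 0 lowered, and 0 raised and 0 lowered. Pcna, the replication clamp, had 64, 45.2 and 34.5 CPM in the IL6 libraries, against 141, 215, 66.4, 63.7 and 39.9 CPM in the PBS libraries, with an adjusted p of 0.392. It was highest in PBS libraries 1 and 2, which also had the most erythroid marker RNA, and the part of that RNA in this difference was not tested.

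The 3 cytokines of the screen were compared in the same cells, each with 3 libraries, at the same dose and time. Against the same PBS libraries, IL1b called 1433 genes (10.9%) and TNFa 2848 (21.6%), and these comparisons share their controls with that of IL6. The median log2 fold change over PBS of the 51 genes raised by IL6 was 1.61 with IL6, 1.96 with IL1b and 2.45 with TNFa. Set directly against IL1b, 821 genes differed (6.23%), 389 of them higher with IL6 (2.95%) and 432 lower (3.28%). Set against TNFa, 1695 differed (12.9%), 772 higher with IL6 (5.86%) and 923 lower (7%). The 51 were chosen with the same IL6 libraries, and their counts are given as a description. Of them, 3 were higher with IL6 than with IL1b and 16 lower, with a median log2 difference of -0.37, beside -0.03 for all genes tested. Against TNFa, 3 were higher and 27 lower, with a median of -0.84 beside 0.10. The counts of all genes fell to 435 to 509 against IL1b and 1014 to 1053 against TNFa when 1 IL6 library was left out, to 460 and 531 without IL1b library 1 or 2, and to 1108 without TNFa library 3.

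Nxpe5 and Sfxn5 were higher with IL6 than with either other cytokine. Nxpe5 averaged 200.1 ± 32.9 CPM with IL6, 34.9 ± 22.7 CPM with IL1b, 32.6 ± 3.76 CPM with TNFa (SD, n = 3 each) and 35.9 ± 12.8 CPM with PBS (SD, n = 5). IL6 stood alone there, and its log2 difference was 2.52 ± 0.45 (SE, adjusted p = 0.00269) from IL1b and 2.62 ± 0.45 (SE, adjusted p = 0.00121) from TNFa. Sfxn5 averaged 73.8 ± 14.7 CPM with IL6, 18.8 ± 2.47 CPM with IL1b, 13 ± 3.94 CPM with TNFa (SD, n = 3 each) and 22.7 ± 5.29 CPM with PBS (SD, n = 5), with log2 differences of 1.97 ± 0.31 (SE, adjusted p = 0.00112) and 2.48 ± 0.32 (SE, adjusted p = 0.000106). Pros1 averaged 85.7 ± 34.4 CPM with IL6, 45.1 ± 8.36 CPM with IL1b, 36.2 ± 7.68 CPM with TNFa (SD, n = 3 each) and 11.6 ± 2.12 CPM with PBS (SD, n = 5). It was higher with IL6 than with TNFa, by 1.24 ± 0.31 (SE, adjusted p = 0.0139), while the difference from IL1b, 0.93 ± 0.30 (SE, adjusted p = 0.0863), did not pass. Nipa2 exceeded its IL1b level by 0.87 ± 0.19 (SE, adjusted p = 0.0111). Hip1, which binds clathrin and actin, averaged 385 ± 55.1 CPM with IL6, 230.4 ± 32.8 CPM with IL1b, 240.4 ± 30.7 CPM with TNFa (SD, n = 3 each) and 161 ± 42.2 CPM with PBS (SD, n = 5), and neither difference passed, at 0.74 ± 0.24 (SE, adjusted p = 0.0826) from IL1b and 0.68 ± 0.24 (SE, adjusted p = 0.0745) from TNFa.

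The transcription factor NF-kB is activated by IL1b and TNFa. Of 24 genes of NF-kB feedback and targets, 18 were lower with IL6 than with IL1b, beside 3.28% of all genes tested, and 24 were lower with IL6 than with TNFa, beside 7%. None of the 24 was called with IL6 against PBS (median 0.26), with 2 higher and 0 lower at an unadjusted p under 0.05 in edgeR's test and 2 raised and 0 lowered by DESeq2. The 6 genes with the smallest p against IL1b were Bcl2a1d, Bcl2a1b, Sod2, Bcl2a1a, Gk and Cd274, and those against TNFa were Cd274, Bcl2a1b, Bcl2a1d, Itga5, Sod2 and Ehd1. All were lower with IL6, and the Bcl2a1 genes are close copies of each other. Sod2, the mitochondrial superoxide dismutase, averaged 103 ± 3.62 CPM with IL6, 567 ± 54.4 CPM with IL1b, 1046 ± 111 CPM with TNFa (SD, n = 3 each) and 109 ± 19.4 CPM with PBS (SD, n = 5). Its log2 difference was -2.46 ± 0.20 (SE, adjusted p = 5.45e-06) from IL1b and -3.34 ± 0.20 (SE, adjusted p = 5.84e-08) from TNFa. Cd274, the checkpoint ligand PD-L1, averaged 60.2 ± 2.71 CPM with IL6, 334 ± 68.3 CPM with IL1b, 1053 ± 22.2 CPM with TNFa (SD, n = 3 each) and 54.9 ± 10.8 CPM with PBS (SD, n = 5), with log2 differences of -2.47 ± 0.22 (SE, adjusted p = 1.11e-05) and -4.13 ± 0.23 (SE, adjusted p = 5.84e-08). For both genes the IL6 mean lay within 1 SD of the PBS mean. Of the raised genes, Trib1 averaged 55.1 ± 12.1 CPM with IL6, 176 ± 24 CPM with IL1b, 163 ± 7.56 CPM with TNFa (SD, n = 3 each) and 13.9 ± 3.59 CPM with PBS (SD, n = 5), a log2 difference of -1.57 ± 0.25 (SE, adjusted p = 0.000677) from TNFa.

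**Figure D3:**
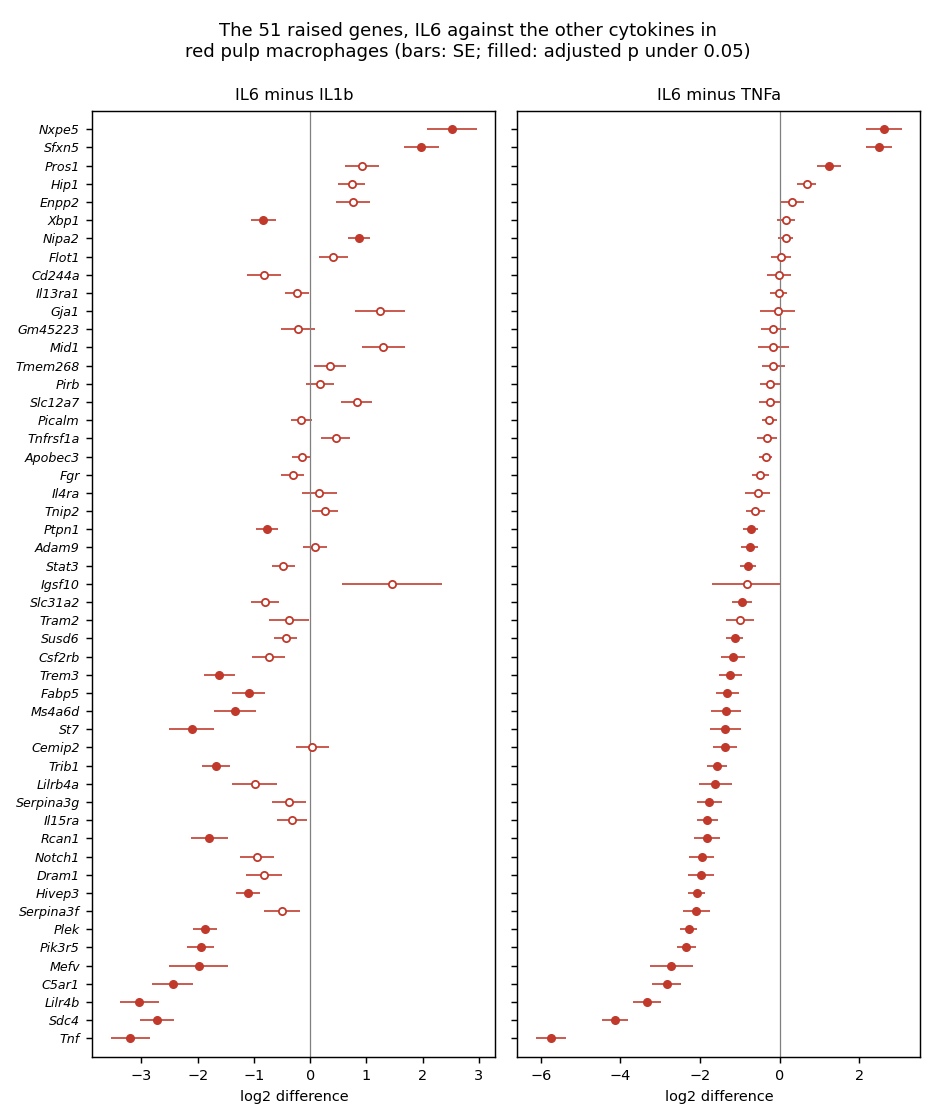
Log2 difference of IL6 minus IL1b (left) and IL6 minus TNFa (right) in red pulp macrophages for the 51 genes that IL6 raised over PBS, in the order of the right panel, with SE bars. Filled points passed the adjusted threshold, 3 above 0 and 16 below it against IL1b, 3 above and 27 below against TNFa.

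A pair of other phagocytes of the screen were set beside the red pulp macrophages, each with 3 IL6 and 5 PBS libraries of its own: peritoneal macrophages and splenic Ly6C+ monocytes. IL6 against PBS called 1852 of 12079 genes in peritoneal macrophages (15.3%), 1107 of them raised (9.16%), and 738 of 12573 in monocytes (5.87%), 475 raised (3.78%). Of the 51 genes raised in red pulp macrophages, 31 were raised in peritoneal macrophages, which is 60.8% of the 51 and 2.80% of the 1107. In monocytes 22 were raised, 43.1% of the 51 and 4.63% of the 475. The genes raised in all 3 cell types numbered 16, among them Ptpn1, Il4ra, Il13ra1, Il15ra, Tnfrsf1a, Csf2rb, Flot1 and Stat3. Another 14 were raised in neither other type, among them Pros1, Rcan1, Tnf, Plek and Notch1. Of these, Igsf10 was too low to be tested in either type and Enpp2 in peritoneal macrophages. A gene that was not called in another type need not differ in its response. Among the 14, Tnf, Plek, Hivep3, Enpp2, Igsf10, Serpina3f, Slc31a2 and Trem3 passed neither direct test of the difference given below. Median log2 fold changes of the tested genes among the 51 were 0.87 in peritoneal macrophages and 0.70 in monocytes.

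Whether the response differed between cell types was tested directly, as the log2 fold change in red pulp macrophages minus that in the other type, over 15333 genes. It differed from peritoneal macrophages for 119 genes (0.776%), 56 of them (0.365%) with a more positive value in red pulp macrophages, and from monocytes for 123 (0.802%), 57 of them (0.372%) more positive. Of the 51 raised genes, 11 had a larger response than in peritoneal macrophages and 1, Apobec3, a smaller one, and 9 had a larger response than in monocytes. The 51 were chosen by their response in red pulp macrophages, a choice that favours larger values there. Pros1 led both tests, with differences of 3.01 ± 0.27 (SE, adjusted p = 5.36e-09) and 2.32 ± 0.27 (SE, adjusted p = 5.23e-06). On a common scale it averaged 76.9 CPM with IL6 and 10.5 CPM with PBS in red pulp macrophages. It averaged 919.9 ± 66.3 CPM with IL6 and 1009.8 ± 68.4 CPM with PBS in peritoneal macrophages, and 164 ± 40.6 CPM with IL6 and 111 ± 23.7 CPM with PBS in monocytes (SD, n = 3 and 5). Peritoneal macrophages held the most Pros1 RNA in either condition, and their own log2 fold change was -0.10 ± 0.08 (SE, adjusted p = 0.487). Tnip2, Rcan1 and Pik3r5 also had a larger response than both other types, with differences from peritoneal macrophages of 1.17, 1.99 and 1.22, and from monocytes of 1.23, 1.86 and 1.20. The counts depended on libraries of each type: leaving out 1 gave 29 to 309 genes against peritoneal macrophages, the lowest without IL6 library 2 of red pulp macrophages and the highest without their PBS library 5, and 46 to 439 against monocytes, the lowest without IL6 library 3 of monocytes and the highest without PBS library 5 of red pulp macrophages.

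**Figure D4:**
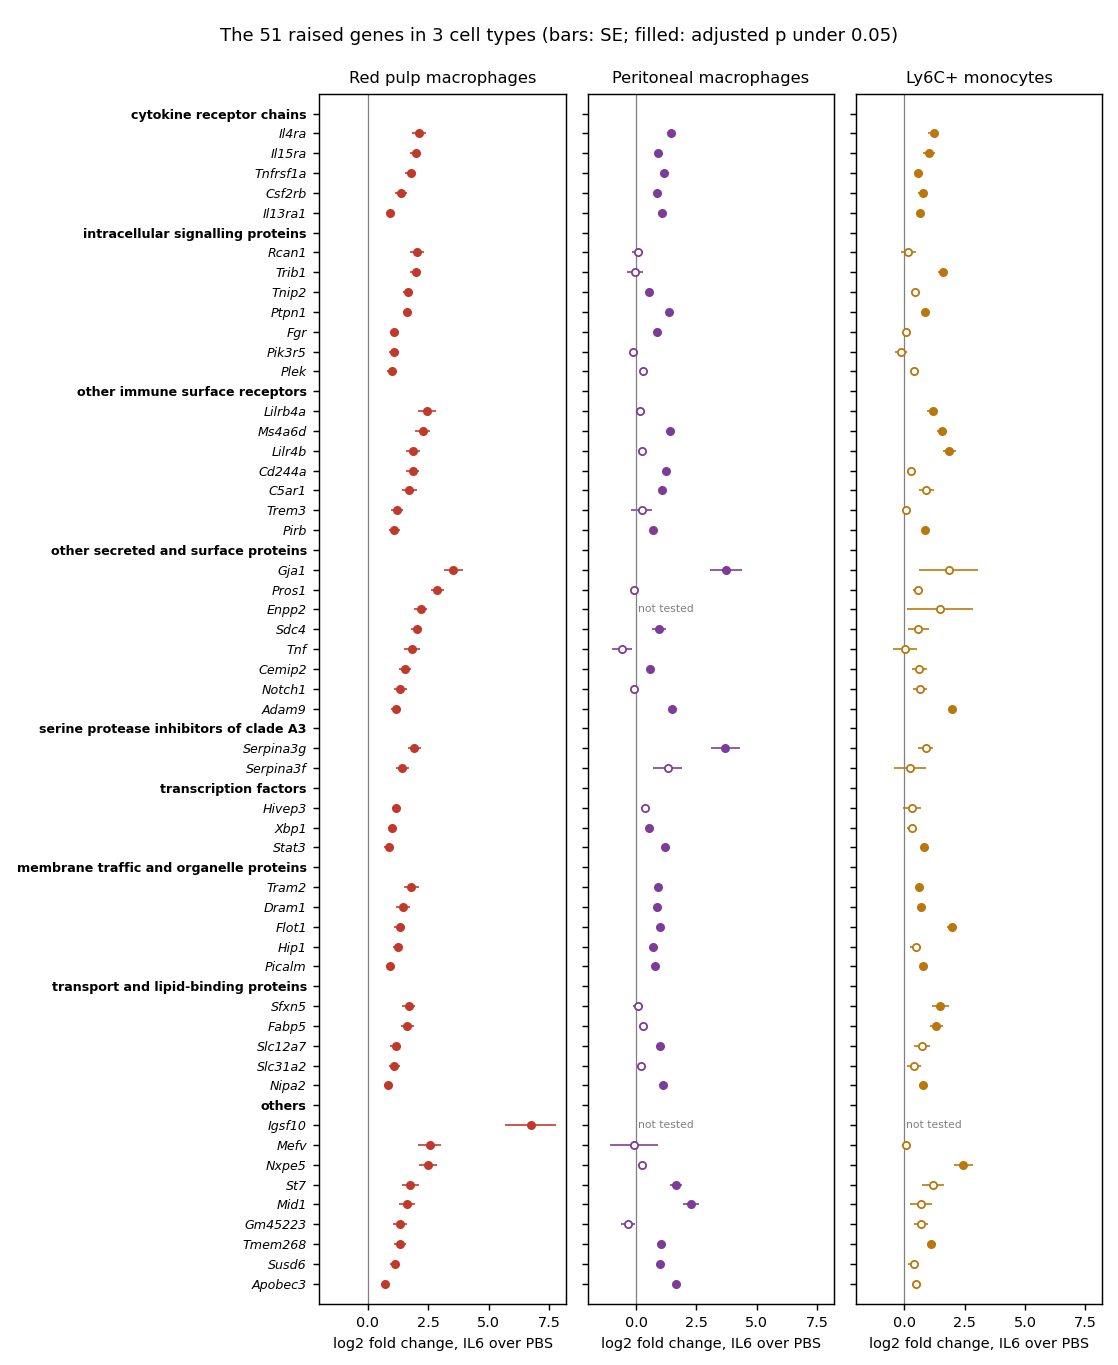
Log2 fold change of IL6 over PBS for the genes raised in red pulp macrophages, in columns for red pulp macrophages, peritoneal macrophages and Ly6C+ monocytes, with SE bars and filled points for an adjusted p under 0.05. Pros1 stands at 2.88 in red pulp macrophages and -0.10 in peritoneal macrophages, while Ptpn1, Il4ra and Stat3 passed in all 3 cell types.

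Ribosome biogenesis genes rose in peritoneal macrophages. The list held 0 called genes of 24 in red pulp macrophages (median -0.07, 0 higher and 2 lower at an unadjusted p under 0.05 in edgeR's test, 0 raised and 1 lowered by DESeq2), 23 of 24 raised in peritoneal macrophages (median 0.86) and 5 of 24 raised in monocytes (median 0.33). Of all genes tested, 0.387%, 9.16% and 3.78% were raised in these cell types, in that order. The difference itself passed for 7 of the 24 against peritoneal macrophages and 2 against monocytes, all with the lower value in red pulp macrophages. It passed for 0.776% and 0.802% of all genes tested, in either direction. The PBS mean of red pulp macrophages includes PBS libraries 1 to 3, which are rich in haemoglobin. Without these, 45 and 107 of all genes tested differed, 22 and 46 of them among the 119 and 123 of the main fit. The part of these libraries in the ribosome biogenesis difference was not tested. Nolc1, a nucleolar chaperone of small nucleolar ribonucleoproteins, averaged 66.5 CPM with IL6 and 90.1 CPM with PBS in red pulp macrophages, and the difference in response from peritoneal macrophages was -1.68 ± 0.25 (SE, adjusted p = 0.000361). In the list of STAT3 targets, 2 of 28 were raised in red pulp macrophages (median 0.59), beside 13 of 28 in peritoneal macrophages (median 0.48) and 10 of 28 in monocytes (median 0.66). These counts stand beside the same shares of all genes raised, and the medians ran from 0.48 to 0.66. The difference itself passed with a more positive value in red pulp macrophages than in peritoneal macrophages for 3 genes of this list and a lower one for 1. Against monocytes it passed for 0 in edgeR's test, with 4 more positive and 5 lower at an unadjusted p under 0.05 and 1 more positive and 0 lower by DESeq2. Socs3 and Il6st, which were not called in red pulp macrophages, rose in peritoneal macrophages by 1.34 ± 0.14 (SE, adjusted p = 1.11e-06) and 1.19 ± 0.15 (SE, adjusted p = 1.59e-05), and the difference between the cell types was -0.42 ± 0.56 (SE, adjusted p = 0.834) and -0.81 ± 0.39 (SE, adjusted p = 0.379). The surface enzyme Cd38 averaged 699.7 CPM with IL6 and 469 CPM with PBS in red pulp macrophages, with a difference from monocytes of -2.88 ± 0.45 (SE, adjusted p = 0.000698). Wsb1, part of a ubiquitin ligase, averaged 148 CPM with IL6 and 84.4 CPM with PBS in red pulp macrophages, and its response was more positive than in peritoneal macrophages by 1.32 ± 0.19 (SE, adjusted p = 0.000255) and than in monocytes by 1.18 ± 0.19 (SE, adjusted p = 0.000781).

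**Figure D5:**
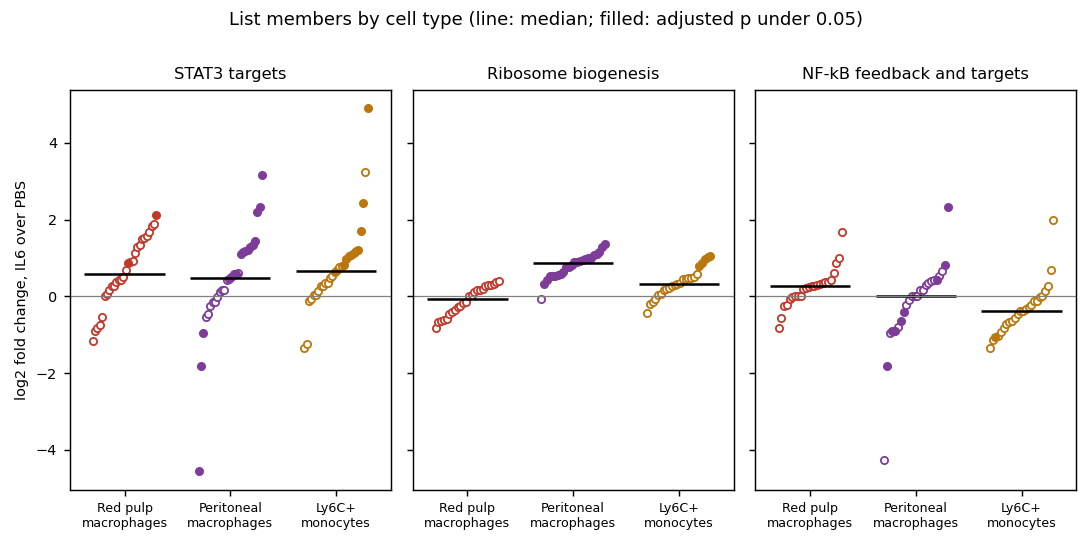
Log2 fold change of IL6 over PBS for the tested members of 3 gene lists, 1 point per gene in order of value, in red pulp macrophages, peritoneal macrophages and Ly6C+ monocytes, with a line at each median and filled points for an adjusted p under 0.05. Ribosome biogenesis genes have medians of -0.07, 0.86 and 0.33 in that order, and filled points among STAT3 targets number 2 raised in red pulp macrophages.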

How the data were processed

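RNA of sorted cells was sequenced in libraries of the Immunological Genome Project's ultra-low-input procedure, per the labels. The authors deposited 1 table of raw counts by gene symbol, in whole numbers. It was made with STAR 2.7.3a on mm10 and featureCounts, per the submitters' processing notes. Not given in the sources used here are the version of featureCounts, its annotation, whether it used strand and how it treated reads with several matches. Groups and replicate numbers came from the titles. The 19 pairs of libraries of a group among those of red pulp macrophages differed by more than sampling noise (chi-square over degrees of freedom from 14.0 to 68.5), and each was 1 replicate.

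The test was edgeR 4.0.16 under R 4.3.3, with TMM factors, filterByExpr at its defaults, glmQLFit, glmQLFTest and Benjamini-Hochberg adjustment, threshold 0.05. The 14 red pulp macrophage libraries (IL6, IL1b, TNFa, PBS) entered 1 fit, and 42 libraries of 3 cell types the fit of the differences in response. The standard error (SE) is the log2 fold change over the root of F. CPM is counts per 1000000 of the TMM-scaled library. Haemoglobin levels were compared with an exact permutation test (scipy 1.17.1). DESeq2 1.42.0, other scalings and filters, a replicate block, a haemoglobin covariate and fits without single libraries were alternatives. The procedure was tested on simulated data, drawn for each gene on its own and without the split among PBS libraries. That run cannot show how the split affects the calls. Positions are from GENCODE vM21 (GRCm38) and promoters from RefSeq (GRCm38.p6).

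The members, lists and tests were chosen with earlier results of these data known. Named are the members of the IL6 receptor, Janus kinase, STAT and STAT inhibitor lists; of the called genes at or above 10 CPM, the 20 raised and 12 lowered with the smallest adjusted p; those called in every fit without 1 library; up to 4 genes per other list by smallest p; 6 per further contrast by smallest adjusted p; and the haemoglobin genes. A part of these is given for length, a few genes are not reported here, and the other raised genes were named after their values were seen.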

Additional observations from a re-analysis of the deposited data

Results flagged for a closer look

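Among 125 genes and marker sums examined in the 5 PBS libraries, 8 had 1 library far from the other 4. Chance alone sets apart about 1 group in 20, and 8 of 125 is near that share. PBS library 2 was the low one for 4 of them. Mertk, the engulfment receptor, had 308 CPM in PBS library 2, against 747 to 845 CPM in the other 4. Icam1, an adhesion molecule of leukocytes, had 142 CPM in PBS library 2, against 264 to 301 CPM in the other 4. Ptpn6, a phosphatase of immune receptors, had 592 CPM in PBS library 2, against 773 to 839 CPM in the other 4. Pirb, an inhibitory receptor, had 303 CPM in PBS library 2, against 549 to 645 CPM in the other 4. The same library held the single Igsf10 count, which is 0.255 CPM. Lilrb4a, the inhibitory receptor raised by IL6, had 95.8 CPM in PBS library 4, against 26.7 to 34.9 CPM in the other 4. Fcgr4, an Fc receptor for IgG, had 366 CPM in PBS library 3, against 199 to 242 CPM in the other 4. Summed monocyte markers were 548 CPM in PBS library 5, against 123 to 240.2 CPM in the other 4.

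The IL6 response, as a log2 fold change over PBS, differed between red pulp macrophages and peritoneal macrophages by an interaction test for these named genes. The differences, red pulp macrophages minus peritoneal macrophages, were above 0 for Pros1 3.01, Lilrb4a 2.33, Nxpe5 2.26, Ptpn22 2.04, Trib1 2.03, Rcan1 1.99, Lilr4b 1.67, Gm45223 1.66, Sfxn5 1.64, Notch1 1.46, Wsb1 1.32, Pik3r5 1.22 and Tnip2 1.17. They were below 0 for Rab3il1 -2.81, Nolc1 -1.68 and Apobec3 -0.91. Against Ly6C+ monocytes, the differences were above 0 for Mefv 2.44, Pros1 2.32, Rcan1 1.86, Cd244a 1.57, Tnip2 1.23, Tnfrsf1a 1.21, Pik3r5 1.20, Wsb1 1.18, Fgr 1.00 and Ptpn1 0.76. They were below 0 for Ccr1 -7.27, Cd38 -2.88 and Tax1bp1 -1.29. Ccr1 averaged at least 10 CPM in some treatment group of red pulp macrophages, which need not be IL6 or PBS. Its levels are not given here, and its difference may rest on low counts.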

How the results depend on the processing

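All 51 genes kept a log2 fold change above 0 under each of the 18 alternatives run that tested them, but the number of all genes past the threshold moved from 51. It was 456 (168 raised, 288 lowered) with no low-count filter, 218 with DESeq2, 20 with only the IL6 and PBS libraries, 22 without PBS libraries 1 to 3, 29 with the haemoglobin level as a covariate and 18 without PBS libraries 2, 3 and 5, an alternative chosen after seeing the data; leaving out 1 library gave 18 to 61. Whether replicate numbers mark a pairing is not stated. Deviations of same-numbered libraries correlated at 0.112, -0.237 and -0.058, beside -0.176 to 0.231 for differently numbered ones. These few values cannot decide it. A replicate block gave 186 called genes (86 raised, 100 lowered), and 384 and 387 for the differences in response from peritoneal macrophages and monocytes. In red pulp macrophages, numbers 4 and 5 occur only in the PBS group, so the IL6 contrast of that fit rests on PBS libraries 1 to 3. The differences in response from these 2 cell types numbered 395 and 518 with no low-count filter and 416 and 538 with DESeq2. They numbered 24 and 14 with only the IL6 and PBS libraries of the cell types compared. Without PBS libraries 1 to 3 they numbered 45 and 107, of which 22 and 46 were among the 119 and 123 of the main fit. Leaving out 1 library gave 29 to 309 and 46 to 439. Against IL1b, DESeq2 called 1320 genes, and leaving out 1 library gave 435 to 674, against TNFa 1014 to 1635. The cause of these moves was not tested, except that fewer libraries or genes enter some fits. For IL6 against PBS, signs turned only for named genes that were not called, and of the 119 differences from peritoneal macrophages 1 turned without PBS libraries 1 to 3. Without PBS libraries 1 to 3, log2 fold changes were -0.013 for Il6st, -0.048 for Slc40a1, 0.50 for Alas2, 0.46 for Hba-a1, 0.0057 for Hba-a2, 0.34 for Hbb-bs and 0.34 for Hbb-bt. With the haemoglobin covariate they were 0.11 for Alas2, 0.17 for Hba-a1 and 0.059 for Hbb-bt, and without PBS libraries 2, 3 and 5 0.081 for Jak2. Leaving out 1 library gave -0.026 to 0.48 for Il6ra. The haemoglobin difference ran from -1.55 to -2.90 (exact permutation p 0.171 to 0.571). Totals of 3329105 counts or more limit genes near 1 CPM to a few counts per library.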

Other observations

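Genes that were lower with IL6 passed the threshold with other fits. DESeq2 called 70 lowered genes, of which 40 had every IL6 library below every PBS library. For 36 of the 70, PBS libraries 1 to 3 were all above PBS libraries 4 and 5, which held for 16.1% of the genes tested. These 36 included the scavenger receptor Cd36 and the interferon-stimulated genes Oasl1 and Rsad2. The others of the 70 included the immunoglobulin genes Igkc, Ighm and Jchain. Igkc, the kappa light chain, had 20.2, 9.65 and 10.9 CPM in the IL6 libraries, against 102, 2972, 2104, 44.6 and 615 CPM in the PBS libraries. With a replicate block, IL6 was compared with PBS libraries 1 to 3 alone, since numbers 4 and 5 occur only in the PBS group. Of the 100 genes lowered in that fit, 94 had PBS libraries 1 to 3 above the other PBS libraries. They included Epb41 and Hbb-bs, genes of red cells. The part of the haemoglobin-rich and immunoglobulin-rich libraries in these calls was not tested.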
